A study of Mus musculus with 12 samples.

Results

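The effect of the ANRIL knockout on the renal cortex was measured over both conditions at once, as the 6 knockout mice against the 6 wild-type mice with diabetes held as a covariate. All 12 libraries of the series entered the comparison, and 18461 of its 55421 listed genes passed a filter on low values and were tested. The groups were non-diabetic ANRIL knockout mice (KO-C), non-diabetic wild-type mice (WT-C), knockout mice made diabetic with streptozotocin (KO-D) and wild-type mice made diabetic in the same way (WT-D), with 3 mice in each. Streptozotocin, which destroys the pancreatic cells that make insulin, was given at 50 mg/kg on 5 days to mice that were 8 weeks old, and follow-up lasted 2 months. The study describes its mice as male and its controls as littermates given citrate buffer. The knockout is a constitutive deletion of a noncoding interval of chromosome 4, present in every cell and not only in the kidney. The labels give the strain as 129S6/SvEvTac-Del[4C4-C5]1Lap/Mmcd for all 12 mice, wild types included, so genotype rests on the genotype label.

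ANRIL is a long noncoding RNA, first described in humans, that is transcribed antisense to CDKN2B in the INK4 locus. It has been studied as a partner of the Polycomb repressive complexes, which silence genes through histone marks, and of the histone acetyltransferase p300. The renal cortex is made up mostly of proximal tubules, with glomeruli, distal tubules and the start of the collecting ducts between them.

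Expression is given in CPM, the reads of a gene per 1000000 reads counted in its library, and depth was 34.2 to 37.1 M reads in KO-C, 35.4 to 40.9 M in WT-C, 23.8 to 28.9 M in KO-D and 32.6 to 67.3 M in WT-D. The factors that scale the libraries to each other (TMM) were highest in KO-D, at 1.096 to 1.281, against 0.8911 to 1.201 in WT-D. The first principal component held 50.9% of the variance and separated diabetic from non-diabetic mice, and WT-D replicate 3, at 5.92, lay apart from the other 5 diabetic mice. WT-C replicate 1 and WT-D replicate 3 had the lowest library weights in their groups, 0.342 and 0.355, where 1 is an average library. Summed adipocyte markers reached 293 CPM in WT-D, against at most 74.3 CPM in KO-D. WT-D replicate 1 carried this sum, and its mean log2 level of these markers was 5.3, against 0.3 and -1.47 in the other WT-D mice. It also had the highest mean log2 level of apolipoprotein and lipid genes (4.43, against 3.3 and 3.17). Other values of cell type markers stand beside the results they touch. The labels do not say how the mice of a group relate to each other beyond being separate samples, so p-values measure the spread between these mice.

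No gene passed the threshold in the pooled comparison. With limma, 0 of 18461 genes (0.0%) had an adjusted p under 0.05, and the smallest adjusted p was 0.135. At an unadjusted p under 0.05 there were 2376 genes (12.9%), of which 824 (4.46%) were higher and 1552 (8.41%) lower in knockout kidneys. That split depends on the scaling, since without scaling between libraries 2488 genes were higher and 422 lower and the median of all genes moved to 0.144, against -0.017 with TMM. On the recovered reads, the quasi-likelihood test of edgeR called 0 genes as well, with 2412 below 0.05 before adjustment. DESeq2's Wald test called 123 genes (0.666%), 23 higher (0.125%) and 100 lower (0.542%), limma with a weight for each library called 15, and limma voom with such weights called 0 (smallest adjusted p 0.064). Genes are therefore described below as higher or lower by their values, and a DESeq2 call is named as such.

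The deleted region was looked at first. The annotation holds no gene named ANRIL, so no read could be assigned to a transcript of that name. Other genes listed near Cdkn2b had few or no reads in wild-type mice. Gm12606 had 0 reads in every library. Gm12609 had 0 reads in every WT-C and WT-D library and at most 6 in a knockout library. Gm12610 had 0 reads in every KO-C and WT-C library, 1 in each KO-D library, and 1, 0 and 0 in WT-D. Whether any of them is the targeted transcript was not tested. With so few wild-type reads, the knockout label could not be checked on them. Cdkn2b (ENSMUSG00000073802), which encodes the cyclin-dependent kinase inhibitor p15 and lies in the Ink4 locus on chromosome 4, had 101, 11 and 1 reads in the KO-C mice, against 70, 39 and 16 in the WT-C mice. In the KO-D mice it had 2, 30 and 17 reads, against 165, 97 and 50 in the WT-D mice. All KO-D mice were below all WT-D mice, whereas 1 KO-C mouse was above every WT-C mouse. The pooled log2 difference was -1.63 (SE 0.65, unadjusted p = 0.0255, adjusted p = 0.335 with limma), and without single mice it lay between -2.22 and -1.22. The mean log2 level of 7 inner medulla and urothelium markers was 2.18, 1.34 and -0.83 in KO-C, against 1.28, 0.58 and -0.93 in WT-C. It was -1.85, 1.12 and 0.03 in KO-D, against 2.5, 0.77 and 1.13 in WT-D. The part of these tissues in the Cdkn2b values was not tested. Cdkn2a, which encodes p16 and Arf, had 0 reads in every KO-C, WT-C and KO-D library and 4, 1 and 0 reads in WT-D, so that its difference was not detectable at this depth. Mtap, a methionine salvage enzyme 0.15 Mb from Cdkn2b, differed by -0.26 (SE 0.09, unadjusted p = 0.00983, adjusted p = 0.309 with limma). Of 6 tested genes within 1 Mb of Cdkn2b, 0 were higher and 2 (Cdkn2b and Mtap) lower at an unadjusted p under 0.05. Klhl9 differed by -0.06, and the values of Focad (0.32, SE 0.2) and Hacd4 (0.54, SE 0.43) were positive with wide errors. Among other CDK inhibitors, Cdkn1a, which encodes p21, differed by 0.49 (SE 0.2) and Cdkn2c by -0.28 (SE 0.13). Of 30 Polycomb and p300 partners 2 (6.67%) were higher and 2 lower, with a median of 0.03, against 4.46% higher and 8.41% lower over all tested genes. The members past an unadjusted p of 0.05 were Suz12 (0.52) and Phc3 (0.3), both Polycomb subunits, and Epop (-0.63), a cofactor of Polycomb repressive complex 2, and Ring1 (-0.35), a Polycomb ubiquitin ligase.

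Several of the genes with the smallest p lay on the same chromosome but 46.5 Mb away from Cdkn2b, in a block of chemokine and receptor genes that runs from Il11ra1 to Ccl21a. Ccl19 and the Ccl21 genes encode ligands of the receptor Ccr7 that guide T cells and dendritic cells to lymphoid tissue. Ccl27a encodes a ligand of Ccr10, and Il11ra1 the receptor of interleukin 11. The block holds several near-identical copies of Ccl21, Ccl19 and Il11ra2, some of them on unplaced scaffolds of the mm10 build. The coding sequences of Ccl21a (chr4:42772860-42773993, minus strand) and of Ccl21b (chr4:42255767-42256432, plus strand) are shown around the only bases at which they differ, because reads of the copies can be told apart in the coding part by these bases alone. They were read from GENCODE M21 (GRCm38), written 5′ to 3′ on the coding strand without introns, and the capital marks the base that differs. Over 399 coding bases, counted from 1 at the first base of the start codon and without the stop codon, the substitutions from Ccl21a to Ccl21b are T84A and C194T (99.5% identity), and Gm21541, Gm13304 and Gm10591 have the same coding sequence as Ccl21b.
Ccl21a around position 84: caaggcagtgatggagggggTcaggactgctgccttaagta
Ccl21b around position 84: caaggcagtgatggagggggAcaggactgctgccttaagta
Ccl21a around position 194: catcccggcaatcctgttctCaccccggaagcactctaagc
Ccl21b around position 194: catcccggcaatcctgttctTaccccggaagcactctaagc

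Ccl21b, Gm21541, Gm13304 and Gm10591 had the same reads in every library, 12, 14 and 14 in KO-C, against 127, 43 and 33 in WT-C, and 11, 8 and 3 in KO-D, against 58, 258 and 51 in WT-D. They count here as a single measurement of copies that could not be told apart. After scaling the values were 0.352, 0.444 and 0.406 CPM in KO-C, against 4.22, 1.21 and 1.12 CPM in WT-C. In KO-D they were 0.347, 0.263 and 0.0892 CPM, against 0.717, 5.92 and 1.75 CPM in WT-D. Every knockout mouse was below every wild-type mouse over both conditions, and the wild-type mice differed among themselves by several fold. The log2 difference of Ccl21b was -2.33 (SE 0.45, adjusted p = 0.226 with limma, adjusted p = 1.73e-05 with DESeq2). It was -1.93 without diabetes and -2.74 within diabetes, and without single mice it lay between -2.59 and -1.95.

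Ccl19 (ENSMUSG00000071005, chromosome 4, 42754525 to 42756577, minus strand) had 0.411, 0.476 and 0.435 CPM in KO-C, against 3.79, 1.35 and 1.73 CPM in WT-C. In KO-D it had 1.39, 1.02 and 0.862 CPM, against 1.64, 4.29 and 4.19 CPM in WT-D. The groups did not overlap within either condition, and the KO-C mice lay close together. The log2 difference was -1.73 (SE 0.29, unadjusted p = 2.94e-05, adjusted p = 0.135 with limma, adjusted p = 1.73e-05 with DESeq2). It was -2.01 without diabetes and -1.45 within diabetes. Among the fits that left out a single mouse, limma called genes only without WT-D replicate 1, 4 in all, and these were 2 Ccl19 copies, the Ccl19 pseudogene Ccl19-ps3 and Gm2564, with a smallest adjusted p of 0.0269.

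Ccl21a, the copy that the listed bases separate from the others, had 1.06, 1.4 and 1.01 CPM in KO-C, against 3.79, 1.35 and 0.951 CPM in WT-C. In KO-D it had 0.695, 0.755 and 0.268 CPM, against 2.72, 3.23 and 2.82 CPM in WT-D. The non-diabetic groups overlapped, with WT-C replicate 1 far above the rest, and the diabetic groups stood apart from each other. The log2 difference of Ccl21a was -0.54 without diabetes and -2.26 within diabetes, and -1.4 over both (SE 0.38, adjusted p = 0.0176 with DESeq2). Ccl27a had 0.91, 1.02 and 0.666 CPM in KO-C, against 12, 3.14 and 6.49 CPM in WT-C, and 2.4, 0.985 and 0.684 CPM in KO-D, against 0.693, 5.09 and 3.71 CPM in WT-D. Here the non-diabetic groups stood apart and the diabetic groups overlapped, with WT-D replicate 1 at the level of the knockout mice. Its log2 difference was -2.74 without diabetes and -0.96 within diabetes.

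Il11ra1 had 57.9, 57.3 and 53 CPM in KO-C, against 91.0, 65.1 and 70.6 CPM in WT-C. In KO-D it had 29.0, 31.5 and 30.1 CPM, against 39.5, 44.1 and 55.7 CPM in WT-D. The groups did not overlap within either condition, and the spread among knockout mice was narrow. Its log2 difference was -0.51 (SE 0.11, adjusted p = 0.0115 with DESeq2), close to that of its paralog Il11ra2 (-0.5, SE 0.11, adjusted p = 0.0122 with DESeq2). Il6st, which encodes the signalling subunit shared by the interleukin 11 and interleukin 6 receptors and lies on chromosome 13, differed by 0.26 (SE 0.14, unadjusted p = 0.0892 with limma).

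**Figure D1:**
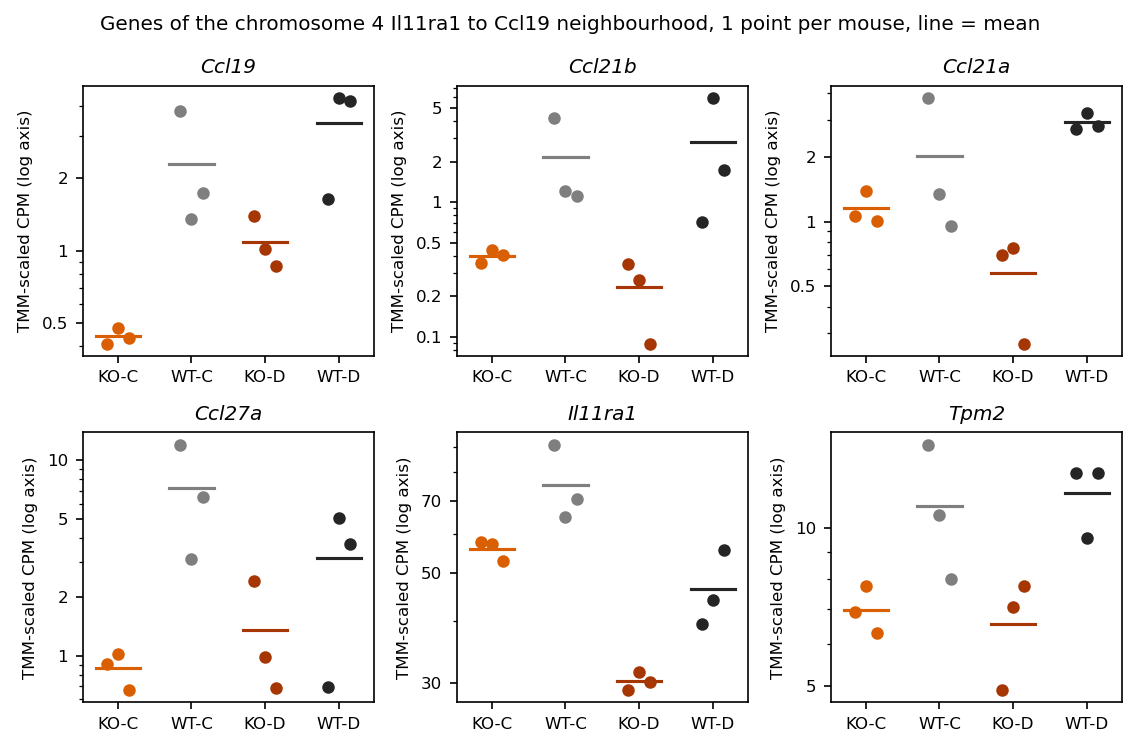
TMM-scaled CPM on log axes of Ccl19, Ccl21b, Ccl21a, Ccl27a and Il11ra1 of the chromosome 4 block and of Tpm2, which lies beyond it. Each panel has 1 point per mouse (n = 3 per group) and a line at each group mean, in the order KO-C, WT-C, KO-D and WT-D. Knockout mice lie below wild-type mice of the same condition for Ccl19, Ccl21b, Il11ra1 and Tpm2, while Ccl21a overlaps without diabetes and Ccl27a within diabetes.

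The list of this block named 27 gene symbols, and 23 genes or copies under these symbols were tested. Some symbols had several copies tested and others none. The 23 hold 20 distinct sets of values, 19 of which were lower at an unadjusted p under 0.05 and 0 higher, with a median log2 difference of -1.34. Near-identical copies remain among the 20, so these are not independent measurements. The list was chosen with earlier results of these data known, so its counts describe the block and do not test it. Over all 23 the counts were 22 lower and 0 higher, with a median of -1.4, against 1552 lower of 18461 genes and a median of -0.02 over all tested genes. In 14 of the 23 the knockout mice lay below the wild-type mice within both conditions, which 205 of all genes did (1.11%). DESeq2 called 17 of the 23, and 14 of the 20 distinct sets. The median was -1.38 without diabetes and -0.96 within diabetes (-1.79 without WT-D replicate 1, the mouse with the most adipocyte marker RNA). GC content and gene length were known for only 14 of the 23. With these trends removed 12 of the 14 were lower, with a median of -1.08. Without the library of lowest weight in each group 19 of the 23 were lower, with a median of -1.13. The mean log2 level of the block was -0.02 to 1.01 in knockout mice and 1.2 to 2.77 in wild-type mice, without overlap.

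The difference did not extend evenly along the chromosome. From Fam219a to Glipr2 (chromosome 4, 41517691 to 43979118), 56 genes or copies were tested, and DESeq2 called 19. At an unadjusted p under 0.05, 28 of the 56 were lower and 1 (Unc13b, 0.4, a regulator of vesicle release) higher. Over all tested genes 8.41% were lower and 4.46% higher. Neighbours inside this stretch had values close to 0, such as Vcp, an ATPase of protein degradation (0.06), Fancg, a DNA repair gene (0.11), and Creb3, a transcription factor (0.06). Genes further along were lower again, among them Tpm2, a tropomyosin, with 6.9, 7.74 and 6.29 CPM in KO-C, against 14.4, 10.6 and 7.98 CPM in WT-C, and 4.9, 7.06 and 7.73 CPM in KO-D, against 12.7, 9.56 and 12.7 CPM in WT-D. All 6 knockout mice lay below all 6 wild-type mice for Tpm2 (log2 difference -0.72, SE 0.16, adjusted p = 0.0118 with DESeq2). Reck, an inhibitor of matrix proteases (-0.65), Ccdc107 (-0.65) and Stoml2, a mitochondrial membrane protein (-0.42), were lower as well. In the 2 Mb before this stretch 2 of 26 genes were lower (median -0.04), and in the 2 Mb after it 3 of 23 (median -0.08). DESeq2 called 2.29% of the tested genes of chromosome 4, 0.649% of those outside the stretch, and at most 1.04% on any other chromosome with at least 100 tested genes.

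**Figure D2:**
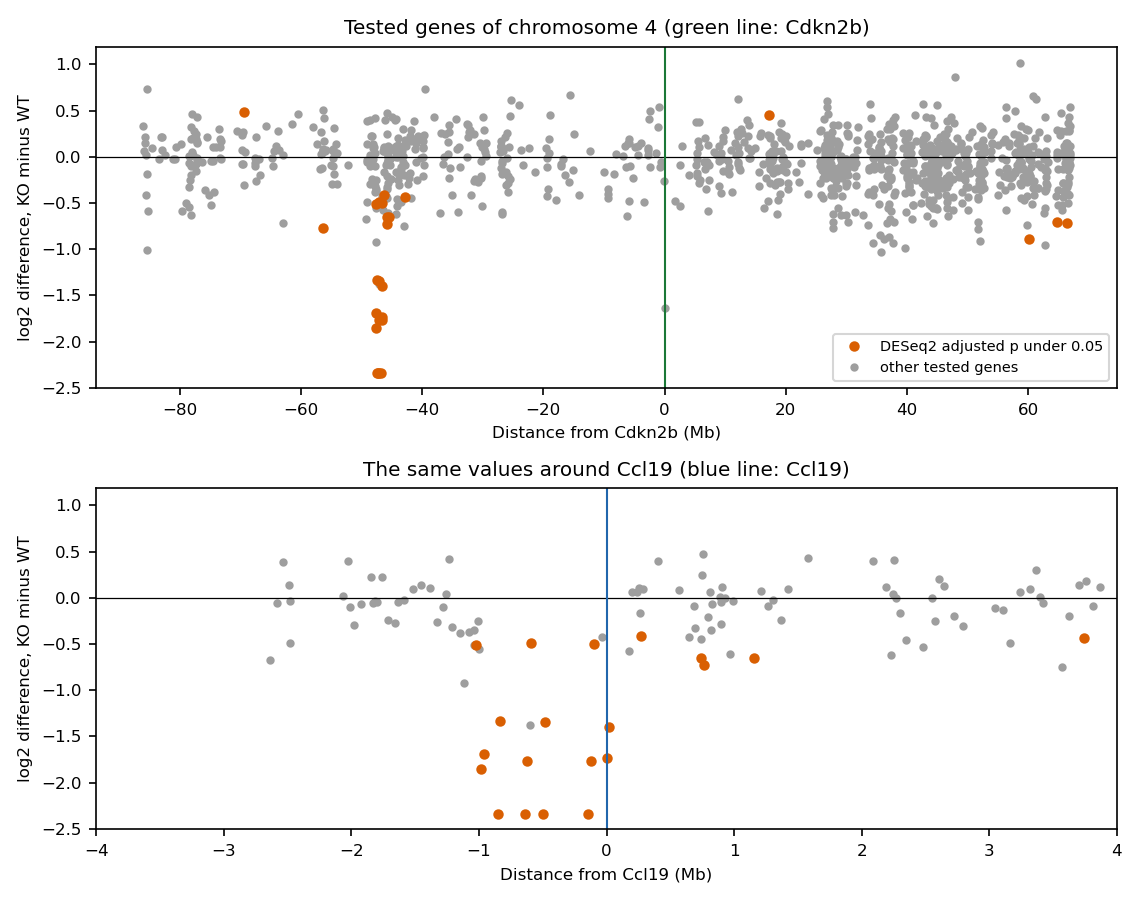
Log2 difference, knockout minus wild type, of the 1135 tested genes of chromosome 4 against distance in Mb from Cdkn2b (top) and, for the part within 4 Mb, from Ccl19 (bottom), with genes called by DESeq2 in orange. The orange points of the lowest values sit together 46.5 Mb from Cdkn2b, and the genes further out on both sides scatter around 0.

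Markers of the cells that make or follow these chemokines were measured beside the block. In whole cortex RNA, fewer cells of a type and less RNA per cell cannot be told apart. The 9 T cell markers summed to 4.46 to 5.87 CPM in KO-C, against 3.73 to 6.42 CPM in WT-C, and to 6.19 to 10 CPM in KO-D, against 7.22 to 12.8 CPM in WT-D, and 0 of the 9 were higher or lower at an unadjusted p under 0.05. Ccr7 was under 0.6 CPM in every mouse and differed by -0.46 (SE 0.33). Of genes of lymphatic endothelium, chosen after the values of the block were seen, Pdpn differed by 0.14 (SE 0.16), Flt4 by 0.19 (SE 0.27), Mmrn1 by -0.51 (SE 0.35) and Prox1 by 0.85 (SE 0.37), while Lyve1 did not pass the filter on low values.

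The 10 higher genes of smallest p included 4 of channels or pumps of the distal nephron, Kcnj10, Trpm6, Bsnd and Atp6v0d2. Kcnj10, the basolateral potassium channel Kir4.1 of the distal tubule, had 48.8, 43.4 and 52.3 CPM in KO-C, against 32.7, 37.3 and 28.0 CPM in WT-C. In KO-D it had 135.0, 101.0 and 104.0 CPM, against 71.2, 77.7 and 56.9 CPM in WT-D. Each knockout mouse was above each wild-type mouse of its condition, and both genotypes had more with diabetes. The log2 difference of Kcnj10 was 0.64 (SE 0.12, unadjusted p = 7.54e-05, adjusted p = 0.226 with limma, adjusted p = 0.000915 with DESeq2), 0.56 without diabetes and 0.72 within diabetes.

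Trpm6, the magnesium channel of the distal convoluted tubule, had 10.3, 10.1 and 12.7 CPM in KO-C, against 5.25, 7.26 and 8.19 CPM in WT-C. In KO-D it had 58.4, 28.1 and 46.6 CPM, against 20.9, 26.0 and 13.4 CPM in WT-D. The groups again did not overlap within a condition, although the KO-D mouse with the least was close to the WT-D mouse with the most. The log2 difference was 0.91 (SE 0.2, adjusted p = 0.309 with limma, adjusted p = 0.0122 with DESeq2). Bsnd, which encodes barttin, a subunit of the ClC-K chloride channels, had 43.5, 42.8 and 35.2 CPM in KO-C, against 32.8, 30.2 and 25.6 CPM in WT-C, and 52.1, 51.6 and 40.7 CPM in KO-D, against 33.7, 36.0 and 35.7 CPM in WT-D. It was 1 of 2 genes that limma with library weights called higher, and its log2 difference was 0.45 without diabetes and 0.44 within diabetes.

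Atp6v0d2, a subunit of the proton pump of intercalated cells, had 26.0, 26.1 and 26.5 CPM in KO-C, against 21.2, 22.1 and 21.8 CPM in WT-C, and 58.6, 43.1 and 49.6 CPM in KO-D, against 34.0, 29.5 and 28.6 CPM in WT-D. The difference was small and even without diabetes (0.27) and larger within diabetes (0.71, unadjusted p = 0.0367 with limma for the difference between the conditions). Tfcp2l1, a transcription factor of the distal nephron and collecting duct, had 147.0, 142.0 and 220.0 CPM in KO-C, against 99.1, 132.0 and 132.0 CPM in WT-C, and 334.0, 242.0 and 269.0 CPM in KO-D, against 146.0, 195.0 and 163.0 CPM in WT-D (0.6, SE 0.14). The other genes among the 10 higher ones of smallest p were Slc16a5, a monocarboxylate transporter (0.5), Kit, a receptor tyrosine kinase (0.65), Hs3st3b1, a heparan sulfate sulfotransferase (0.73), Akap17b (0.63) and Plekhd1 (0.51). DESeq2 called all 10, and in 9 of them the groups did not overlap within either condition, Kit being the exception. A lack of overlap in this direction was seen in 118 of all tested genes (0.639%). The 10 were picked by smallest p on these same mice, so these counts follow in part from the choice and test nothing.

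**Figure D3:**
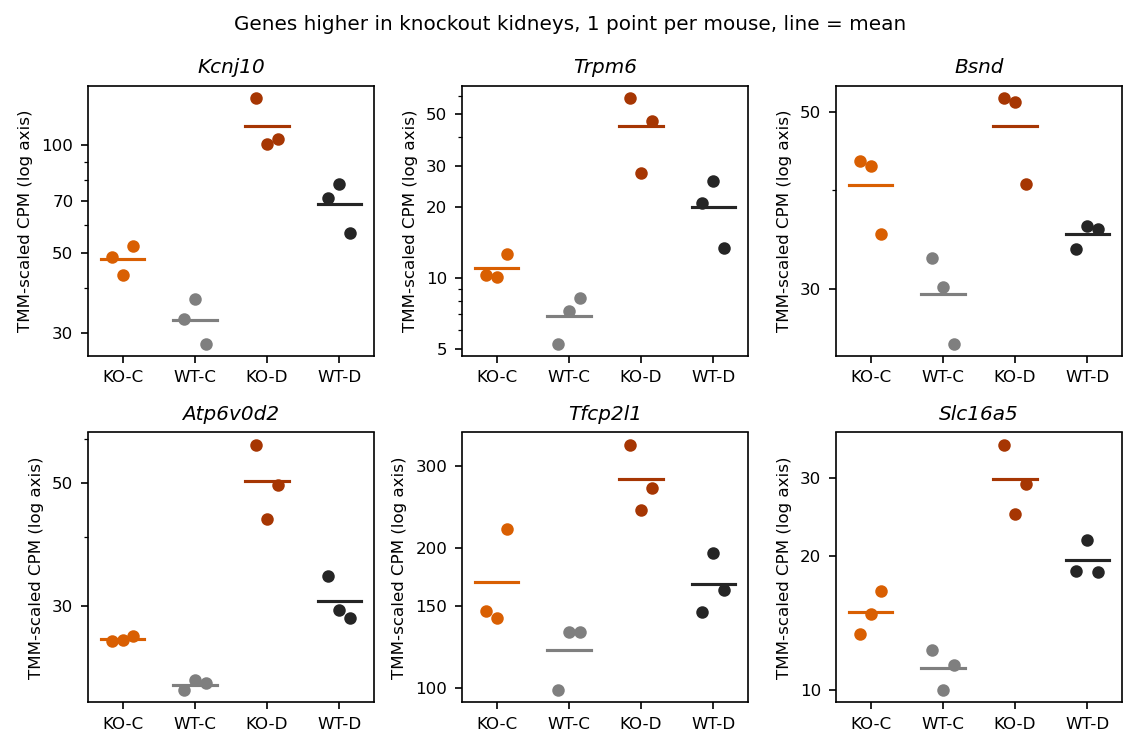
TMM-scaled CPM on log axes of 6 genes that were higher in knockout kidneys, with 1 point per mouse (n = 3 per group) and a line at each group mean, in the order KO-C, WT-C, KO-D and WT-D. The knockout mice lie above the wild-type mice of the same condition for all 6 genes, and diabetic mice lie above non-diabetic mice of the same genotype on average.

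Markers of the segments that express these genes were higher in part. Trpm6 and Atp6v0d2, picked above by their p, are members of these marker lists. The shares of their lists are therefore not independent of the values above. Of 6 markers of the distal convoluted tubule 3 (50.0%) were higher and 0 lower at an unadjusted p under 0.05, with a median of 0.35, against 4.46% higher over all tested genes. The 3 were Trpm6, Slc12a3, the thiazide-sensitive sodium chloride cotransporter (0.42), and Klhl3, a regulator of it (0.39). Without the library of lowest weight in each group 1 of the 6 was higher (median 0.15). Of 6 intercalated cell markers 3 (50.0%) were higher, Atp6v0d2, the anion exchanger Slc4a1 (0.4) and pendrin, Slc26a4 (0.4). The median of the 6 was 0.34, with 0.14 without diabetes and 0.59 within diabetes. Without the library of lowest weight in each group 2 were higher (median 0.25). Of 6 markers of the thick ascending limb 1 was higher, the potassium channel Kcnj1 (0.44). The proximal tubule had 0 of 8 higher or lower (median -0.11) and the principal cells of the collecting duct 0 of 6 (median -0.14), and both medians turned positive without scaling. Summed over the markers, the distal convoluted tubule had 615 to 753 CPM in KO-C, against 534 to 634 CPM in WT-C, and 1350 to 2710 CPM in KO-D, against 1220 to 1580 CPM in WT-D. The intercalated markers summed to 191 to 227 CPM in KO-C, against 193 to 231 CPM in WT-C, and to 262 to 373 CPM in KO-D, against 209 to 249 CPM in WT-D. The part of these segments in the values of single genes was not tested.

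Trpv5, the apical calcium channel, had 7.25, 6.22 and 10.4 CPM in KO-C, against 5.95, 5.94 and 6.22 CPM in WT-C, and 49.9, 29.5 and 37.5 CPM in KO-D, against 28.7, 28.2 and 20.1 CPM in WT-D (0.47, SE 0.16). Trpv6, a related channel, differed by 0.53 (SE 0.16), with non-diabetic groups that did not overlap. Cyp27b1, which activates vitamin D, had 6.98, 5.84 and 7.79 CPM in KO-C, against 2.09, 2.38 and 6.76 CPM in WT-C, and 28.2, 8.54 and 21 CPM in KO-D, against 7.88, 7.84 and 11.2 CPM in WT-D. A wild-type mouse overlapped the knockout mice in each condition, and the difference was 1.0 (SE 0.3, adjusted p = 0.0722 with DESeq2). Of the 14 tested genes of phosphate, vitamin D and Klotho biology 3 (21.4%) were higher and 1 (7.14%) lower, with a median of 0.05. Over all tested genes 4.46% were higher and 8.41% lower. The osmolyte transporter Slc5a3 (0.74, SE 0.25) and Nfat5, the transcription factor that answers to tonicity (0.45, SE 0.18), were higher at an unadjusted p under 0.05. Polyol, fructose and inositol genes as a list went both ways. Of the 10 tested, 2 were higher and 2 lower, with values from -0.68 to 0.74 and a median of 0.04. The cationic amino acid transporter Slc7a1 differed by 1.19 without diabetes and by 0.38 within diabetes (unadjusted p = 0.036 with limma for the difference between the conditions).

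The largest groups of lower genes were those of protein synthesis and respiration. Of 84 cytosolic ribosomal protein genes 51 (60.7%) were lower and 0 higher at an unadjusted p under 0.05, with a median of -0.4, against 8.41% lower over all tested genes. Rpl41 had 233.0, 281.0 and 230.0 CPM in KO-C, against 451.0, 284.0 and 264.0 CPM in WT-C, and 96.9, 138.0 and 97.5 CPM in KO-D, against 242.0, 184.0 and 277.0 CPM in WT-D (-0.74, SE 0.18, adjusted p = 0.023 with DESeq2). WT-C replicate 1 stood above all other mice, the KO-C mice and the other WT-C mice overlapped, and each KO-D mouse was below each WT-D mouse. Of 81 nuclear genes of the respiratory chain 40 (49.4%) were lower and 0 higher (median -0.32), and of 76 mitochondrial ribosomal proteins 33 (43.4%) were lower and 0 higher (median -0.25). Without the library of lowest weight in each group, among them WT-C replicate 1 and WT-D replicate 3, the lower ones numbered 7 of 84 (median -0.11), 2 of 81 (median -0.09) and 3 of 76 (median -0.07). The mean log2 level of the ribosomal proteins was 7.03, 7.13 and 6.83 in KO-C, against 7.8, 7.14 and 7.12 in WT-C, and 6.21, 6.47 and 6.39 in KO-D, against 6.79, 6.61 and 7.15 in WT-D. WT-C replicate 1 and WT-D replicate 3 were the highest of their conditions, and the respiratory chain list also had these highest, with 7.96 in WT-C replicate 1 and 7.44 in WT-D replicate 3.

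Short and GC-rich genes were lower in general over both conditions. The median gene length was 1005 bases for the respiratory chain, 1054 for the cytosolic and 1906 for the mitochondrial ribosomal proteins, against 2854 bases over all tested genes. By quintiles of gene length, from the shortest, the median log2 difference was -0.2, -0.1, -0.02, 0.04 and 0.13, and 19.0% of the shortest genes were lower at an unadjusted p under 0.05, against 1.6% of the longest. By quintiles of GC content, from the lowest, the median was 0.07, 0.06, 0.01, -0.08 and -0.2. The trend on length was seen in both conditions, while the trend on GC content went opposite ways, with medians of -0.02 to 0.1 from lowest to highest GC without diabetes and of 0.17 to -0.49 within diabetes. With both trends removed in each library 43 of the 84 ribosomal proteins were lower (median -0.29), 28 of the 81 respiratory genes (median -0.2) and 23 of the 76 mitochondrial ribosomal proteins (median -0.21). Over all genes there were then 658 higher and 1082 lower at an unadjusted p under 0.05, and limma again called 0. The median was 0.34 for the markers of the distal convoluted tubule and 0.35 for the intercalated markers.

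**Figure D4:**
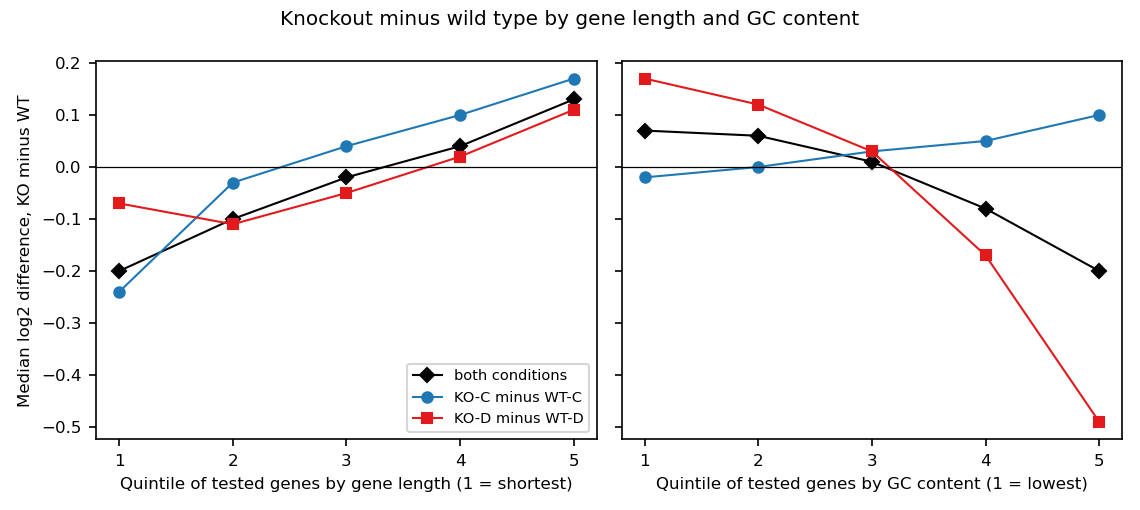
Median log2 difference, knockout minus wild type, in quintiles of the tested genes by gene length (left) and by GC content (right), over both conditions (black), without diabetes (blue) and within diabetes (red). The shortest quintile has a median of -0.2 and the longest 0.13 over both conditions, and the quintile of highest GC content has -0.49 within diabetes and 0.1 without.

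Single genes lower in knockout kidneys outside chromosome 4 included several metabolic enzymes. Gcat, which splits the breakdown product of threonine, had 8.57, 9.52 and 8.11 CPM in KO-C, against 12.8, 11.5 and 10.8 CPM in WT-C, and 3.03, 3.58 and 3.21 CPM in KO-D, against 5.05, 5.28 and 7.01 CPM in WT-D. The groups did not overlap within a condition, and the log2 difference was -0.6 (SE 0.13, adjusted p = 0.00639 with DESeq2). Etfb, an electron carrier of fatty acid oxidation (-0.89), Gpt, an alanine aminotransferase (-0.69), and Mrpl12, a mitochondrial ribosomal protein (-0.73), were called by DESeq2 as well. Chmp6, of the membrane-remodelling ESCRT-III complex (-0.49), Med28, a Mediator subunit (-0.42), Ddt, D-dopachrome tautomerase (-0.81), and Bax, which promotes cell death (-0.64), completed the named genes of this kind. Rbp7, a retinol-binding protein (-0.88), and Smim1, a small membrane protein (-0.71), lie on chromosome 4 outside the block. Med28 was among the 13 genes that limma with library weights called lower, and 12 of the 15 genes it called were Ccl19 or Ccl21 copies. With GC and length trends removed Med28 differed by -0.54, Gcat by -0.41 and Chmp6 by -0.21.

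Gene groups of immunity and stress gave small differences in the pooled comparison. Of 50 interferon-stimulated genes 2 were higher and 0 lower, Cmpk2 (0.42) and Ddx58, a sensor of viral RNA (0.39), 4.0% of the list, against 4.46% of all tested genes that were higher. Their median of 0.32 was 0.12, with 5 higher, without the library of lowest weight in each group. Of 33 heat shock and ER stress genes 6 (18.2%) were higher and 0 lower (median 0.29), and 2 were higher (median 0.1) without the library of lowest weight in each group. Among the 6 were Hspa1b (1.04, SE 0.39) and its partner Hsph1 (0.75, SE 0.29), and Asns, asparagine synthetase (0.38, SE 0.12). Hspa1b varied widely between mice, with 35.6, 12.5 and 45.8 CPM in KO-C, against 11.2, 6.7 and 29.7 CPM in WT-C, and 82.2, 32.4 and 28.5 CPM in KO-D, against 14.3, 28.6 and 22 CPM in WT-D. Of 22 genes of antigen presentation 5 (22.7%) were lower and 0 higher, against 8.41% lower over all tested genes. Among the 5 were H2-Ab1 (-0.53) and its activator Ciita (-0.35). The median of the 22 was -0.01 without diabetes and -0.47 within diabetes. Without the library of lowest weight in each group 0 of the 22 were lower (median -0.17), and without WT-D replicate 1 the median within diabetes was -0.3. The 8 macrophage markers had negative values too (median -0.28), with 0 lower at an unadjusted p under 0.05, and their median within diabetes was -0.29 with all mice and 0.04 without WT-D replicate 1. They summed to 76 to 184 CPM in KO-D, against 122 to 242 CPM in WT-D. Their part in the values of antigen presentation was not tested. Of 27 NF-kB target genes and of 19 complement genes 0 were higher or lower at an unadjusted p under 0.05. Of 33 matrix genes 3 (9.09%) were lower and 1 (3.03%) higher, close to the 8.41% and 4.46% of all tested genes. Ccn2 (-0.61) and Dcn, decorin (-0.7), were lower and Thbs1, thrombospondin 1 (0.57), was higher. The median of the 33 genes was -0.24 (0.01 without the library of lowest weight in each group). It was 0.17 without diabetes and -0.48 within diabetes (-0.41 without WT-D replicate 1). The 8 fibroblast and mesangial markers, with a median of -0.28 over both conditions and -0.54 within diabetes, summed to 80 to 129 CPM in KO-D, against 146 to 198 CPM in WT-D, and their part in the matrix values was not tested.

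**Figure D5:**
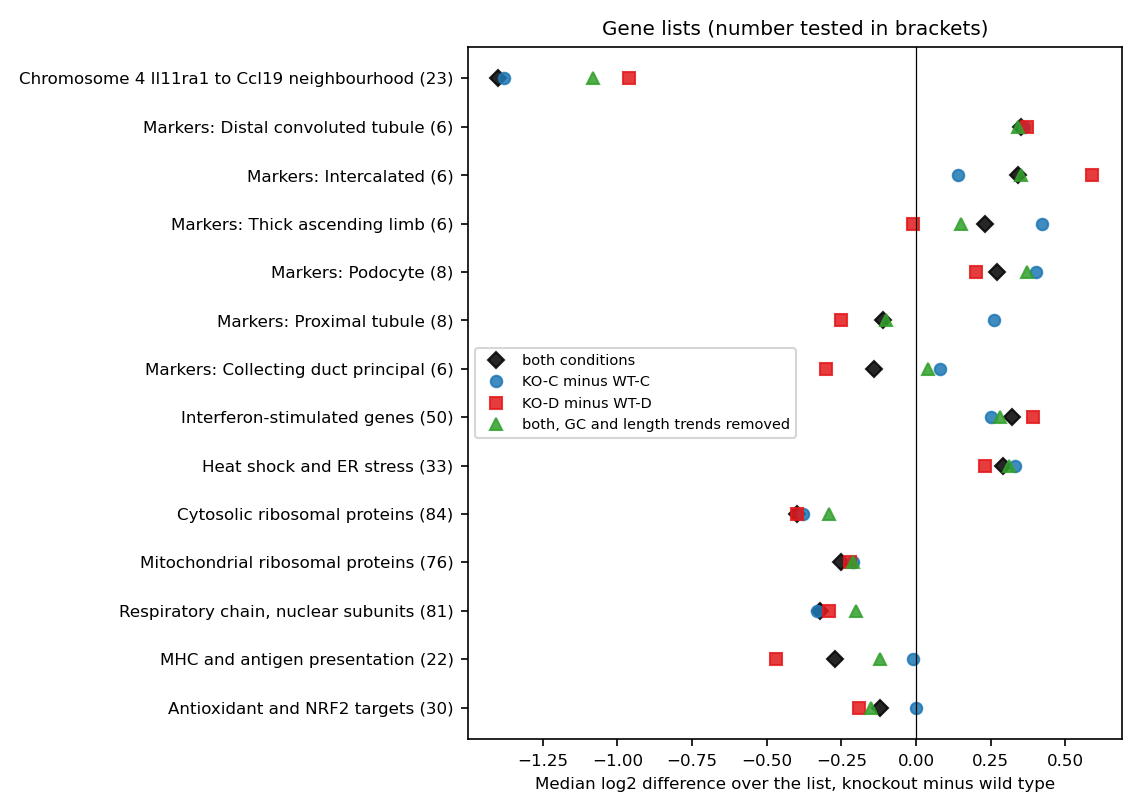
Median log2 difference, knockout minus wild type, of 14 gene lists over both conditions (black), without diabetes (blue), within diabetes (red) and over both conditions with GC and length trends removed (green), with the number of tested genes in brackets. The chromosome 4 block lies between -1.4 and -0.96 in all 4 values, while the medians of the thick ascending limb, proximal tubule and principal cell markers lie on opposite sides of 0 in the 2 conditions. The green value of the block rests on the 14 of its 23 genes or copies with known GC content and length.

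The pooled value assumes a single effect in both conditions, which was tested gene by gene. With limma 0 of 18461 genes (0.0%) differed between the conditions at an adjusted p under 0.05, against 2688 before adjustment. The quasi-likelihood test of edgeR called 0, and DESeq2 called 685. The 6 genes of smallest p all had an adjusted p of 0.0771. Snx8, a sorting nexin, had 55.1, 62.6 and 66.9 CPM in KO-C, against 41.8, 55.1 and 52.7 CPM in WT-C, and 19.6, 21.5 and 20 CPM in KO-D, against 47.4, 37.3 and 47.1 CPM in WT-D. It was thus 0.31 higher without diabetes and 1.1 lower within diabetes on the log2 scale, and Podn, Rnf166, Pla2g6, Ttyh3 and Baiap2 had the same signs. Across 18461 genes the effects in the 2 conditions, which share no mouse, had a Spearman correlation of 0.04 (0.08 with GC and length trends removed), and 51.6% of genes had the same sign. Taken alone, KO-C against WT-C gave 0 called genes (0.0%, 1546 at an unadjusted p under 0.05, 4-group fit with limma) and KO-D against WT-D gave 1021 (5.53%), 19 higher and 1002 lower. The count within diabetes was 0 without WT-D replicate 1, without WT-D replicate 3 or without KO-D replicate 3, and 43 with GC and length trends removed. It was also 0 when the diabetic mice were fitted alone (smallest adjusted p 0.0969 with limma).

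Few genes kept all 6 knockout mice on a single side of all 6 wild-type mice. There were 13 such genes that were higher (0.0704%) and 18 that were lower (0.0975%). Of the 18, 7 belonged to the chromosome 4 block or its scaffolds as listed, and others were Tpm2, Epop, Fkbp11, a folding enzyme of the secretory pathway (-0.46), and the cytochrome P450 gene Cyp2d22 (-0.3). Cyp2d22 had 17.6, 16.1 and 17.8 CPM in KO-C, against 20.7, 24.5 and 21.4 CPM in WT-C, and 17.9, 15.2 and 18.1 CPM in KO-D, against 20.8, 20 and 19.4 CPM in WT-D, a small difference that was even in both conditions. Among the 13 were Zcwpw1, a reader of histone methylation (0.5), Adgrv1, an adhesion receptor (0.76), and Ddx20, an RNA helicase (0.31), which had 12, 11.3 and 12.6 CPM in KO-C, against 10.9, 10.1 and 10.4 CPM in WT-C, and 16.2, 12.5 and 15.1 CPM in KO-D, against 10.8, 11.2 and 10.4 CPM in WT-D.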

How the data were processed

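Total RNA was extracted from the renal cortex, and the study names the TruSeq RNA V2 kit for its libraries. The submitters' notes name STAR 2.7.3a, mm10, R 3.6.1 and edgeR 3.28.0. The deposited table, described as counts, holds CPM made by the authors (each library sums to 1000000), and dividing each value by the smallest of its library gave whole reads, to within 0.01, for 100.0% of the 298586 values above 0. A table of the authors' own fold changes and adjusted p-values and 1 column of no sample were not used. Analysis used R 4.3.3, edgeR 4.0.16, DESeq2 1.42.0 and limma 3.58.1. The edgeR filter filterByExpr, applied to the recovered reads with a minimum count of 10 and a total of 15, dropped 36960 genes. limma (lmFit, eBayes with trend) was run on log2(TMM-scaled CPM + 0.1) with genotype and diabetes as terms (9 residual degrees of freedom), so that fold changes of low genes are understated, with Benjamini-Hochberg adjustment over all tested genes. Only this limma fit and the edgeR quasi-likelihood fit of the same terms were tested on simulated reads, in which 200 genes changed with genotype. The simulated reads held no effect of diabetes. DESeq2, voom, library weights, the 4-group fit and the genotype by diabetes difference were not tested in this way. GENCODE M21 gave gene length and GC content for 99.8% of tested genes, while the study names another release. The authors' strand setting is not given in the sources used here, so overlapping and antisense genes cannot be told apart.

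Since no gene was called, the named genes are the 10 higher and 10 lower with the smallest p, the next 10 by p, all tested genes within 1 Mb of Cdkn2b, up to 4 per gene list and the 6 with the smallest p for the genotype by diabetes difference. Tested genes of the chromosome 4 stretch and genes without overlap of the mice were named after their values were seen. The members and the gene lists were chosen with earlier results of these data known.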

Additional observations from a re-analysis of the deposited data

How the results depend on the processing

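The pooled comparison gave 0 calls under RLE, upper-quartile and no scaling, 3 other pseudocounts, 2 other filters, edgeR, voom, a mean for each group, no covariate, the removal of GC and length trends, and in each condition alone. Exceptions were DESeq2 with 123 and library weights with 15 (0 with voom and library weights), and leaving out single mice gave 0 to 4, the 4 without WT-D replicate 1. A replicate block gave 0 calls (2020 at an unadjusted p under 0.05). Mice with the same replicate number did not pair, with correlations of -0.35 to 0.29 (mean -0.04). The genotype by diabetes difference had 685 calls with DESeq2, 0 with the replicate block and 0 to 659 without single mice (659 without WT-D replicate 2, 506 without KO-D replicate 2). Within diabetes the count was 509 with the replicate block, 43 with GC and length trends removed, 0 with diabetic mice fitted alone and 0 to 1348 without single mice. Without diabetes it was 0 throughout, 0 to 0 without single mice. The cause of these shifts was not tested.

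A pseudocount of 1 CPM gave the chromosome 4 block a median of -0.71, since its genes are low. The ribosomal median was -0.11 without the library of lowest weight in each group, an alternative chosen after the data were seen, as were voom with library weights and the medians within diabetes without WT-D replicate 1. For 34 genes 1085 values were computed under the alternatives, of which 0 reversed and 41 passed the threshold, 32 of them with DESeq2. Genes under 1 CPM rest on few reads in KO-D, the shallowest group.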

Other observations

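Kidney gene groups outside the comparisons above gave mostly small values. Of 19 circadian clock genes 4 (21.1%) were higher and 0 lower at an unadjusted p under 0.05, against 4.46% higher over all tested genes. The 4 were Clock (0.34), Bhlhe40 (0.51), Nfil3 (0.78) and Per3 (0.27). The median of the 19 was 0.34 without diabetes and -0.01 within diabetes. There were 0 higher (median 0.08) without the library of lowest weight in each group and 1 with GC and length trends removed. Of 30 antioxidant genes 6 were lower and 1 higher, including the glutathione peroxidases Gpx4 (-0.57) and Gpx1 (-0.66). The median of the 30 was -0.12, and over all tested genes 8.41% were lower and 4.46% higher. With GC and length trends removed 2 of the 30 were lower and 2 higher. Without the library of lowest weight in each group 4 were lower and 0 higher (median -0.04). Gpx1 differed by -0.08 without diabetes and by -1.24 within diabetes (unadjusted p = 0.00229 with limma for the difference between the conditions). Of 34 cell cycle genes 2 (5.88%) were higher, Tpx2 (0.55) and Cenpf (0.6), and 0 were lower, against 4.46% higher over all tested genes. Of 46 proximal tubule transporters 4 (8.7%) were lower and 0 higher, against 8.41% lower over all tested genes, and 9 were lower without the library of lowest weight in each group. Among the 4 were Amn, a partner of cubilin (-0.54), and the urate transporter Slc22a12, which differed by 0.01 without diabetes and by -0.96 within diabetes.

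Histone genes gave both signs. Hist1h2bl had 11.4, 11.3 and 12.3 CPM in KO-C, against 11.8, 11.8 and 10.3 CPM in WT-C, and 2.15, 2.92 and 2.29 CPM in KO-D, against 8.83, 6.01 and 12.1 CPM in WT-D, so that only the diabetic groups stood apart. Hist2h2be was higher in knockout mice of both conditions (0.42, SE 0.15).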
